A study of Arabidopsis thaliana with 8 samples.

Results

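The HOP, P23 and Fes1 genes examined here are cochaperone genes of Arabidopsis thaliana, whose products help the chaperones HSP70 and HSP90 to work. The members were Hop1 (AT1G12270), Hop2 (AT1G62740), Hop3 (AT4G12400), P23-1 (AT4G02450), Fes1A (AT3G09350) and Fes1B (AT3G53800). They were chosen by name in the probe annotation, as probe sets paired with that gene alone, and each of the 6 genes had 1 such probe set among the 22810 on the array. The annotation named 13356 genes in this way, of which 8690 were tested. All 6 members passed a filter on dim probe sets, and the tests ran over the 15919 probe sets that did.

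The samples were shoots of 15-day-old seedlings of ecotype Col-0, harvested directly after 2 h at 37 °C (heat) or 22 °C (control). The 4 groups were heated hsa32 knockout, heated wild type, control knockout and control wild type, with 2 biological replicates each and 1 array per replicate. An array held RNA of many pooled plants. The knockout carried a T-DNA insertion in HSA32 (AT4G21320), the GABI-268A08 line, so it stood for 1 insertion allele. No other allele or agent is given in the labels. As a check of the labels, HSA32 signal was 378 and 589 in heated knockout shoots, against 23175 and 9240 in heated wild-type shoots. In controls it was 1125 and 1247 in the knockout, against 657 and 230 in wild type, so the knockout lay far below wild type after heat and above it at 22 °C. The position of its probes on the gene was not examined here.

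HOP proteins are adaptors that bind HSP70 and HSP90 at the same time and pass client proteins from HSP70 to HSP90. P23 proteins bind HSP90 in its ATP-bound state. Fes1 proteins are nucleotide exchange factors, which release ADP from HSP70 and so reset it for another round of client binding. In Arabidopsis HOP proteins and Fes1A are known for a part in acquired thermotolerance, the gain in heat tolerance after a mild heat treatment.

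Values are signal intensities, the brightness of a probe set in arbitrary units. Fold changes are on the scale of log2(signal + 29.1), which understates changes of dim transcripts. Tests were made with limma, with Benjamini-Hochberg adjustment over all tested probe sets and a threshold of 0.05. Signals of different probe sets were not ranked against each other, since a probe set's brightness also depends on its probes. The median log2 fold change of heat over control among all tested probe sets was -0.26 in the knockout and -0.22 in wild type. It was -0.08 and -0.07 under quantile normalization, and 0.05 and 0.03 under median centring, so values of the weakly changed genes are also given relative to it. In bulk shoots, fewer cells of a type and less RNA per cell cannot be told apart. Of 9 shoot marker loci listed, 2 were read, RCA and LHCB4.1, and they summed to 44863 to 77095 in heated knockout, 44338 to 71403 in heated wild type, 36096 to 50342 in control knockout and 37557 to 39916 in control wild-type shoots. Of 7 root marker loci, 2 were read, PYK10 and EXPA7, and they summed to 4982 to 5889, 2153 to 5302, 8041 to 9092 and 3292 to 9383 in the same groups. PYK10 made up nearly all of that sum, and EXPA7 lay at 11.3 to 96.8. These sums moved with heat to some degree, and their part in the results was not tested. The flower marker AT5G07230 lay at 18.8 or lower.

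Wild-type control replicate 1 stood apart from the other control arrays for several of these genes. Its title names it a control, whereas its source description names heat without the word control, and the title was followed. Hop3 signal on it was 3.86 times, Fes1A 3.63 times and Hop2 2.02 times that of wild-type control replicate 2, whereas Fes1B was at 0.503 times. These 4 genes therefore lay towards their heated levels on this array, although far from them for Hop3, Fes1A and Hop2. Among HSP70 genes and other cochaperone genes, 11 of 11 were higher on it than on replicate 2, against 52.0% of all tested probe sets. In the knockout controls all 11 of these genes were lower on replicate 1 than on replicate 2. Over all tested probe sets the median log2 difference, replicate 1 minus replicate 2, was -0.13 there and 0.03 in the wild-type controls. For the members it was 0.067 for Hop2, 0.020 for Fes1A, -0.24 for Fes1B and -0.77 for Hop3 in the knockout controls. In the wild-type controls these differences were 0.97, 1.72, -0.95 and 1.57. The cause of the split was not tested. On wild-type control replicate 1, HSP70-2 (139) and HSP70-16 (409) lay below their signals on knockout control replicate 2 (152 and 445). The rest of these listed genes were higher on it than on every other control array. SGT1A, for example, was at 1489, against 565 to 747 on the others, and the AHA1-like gene AT3G12050 at 1979, against 688 to 894. Values of the members that involve wild-type controls are followed below by their values without this array.

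The 3 HOP genes differed in their response to heat. Hop3 and Hop2 rose steeply in both genotypes, and Hop1 did not pass the test in either. Hop3 signal was 20842 and 19552 in heated knockout shoots, against 36.1 and 81.9 in control knockout shoots. In wild type it was 17810 and 15549 after heat, against 248 and 64.3 in controls. The lowest heated array was 62.7 times the highest control array. Heat raised Hop3 by 7.89 ± 0.51 in the knockout (SE, n = 2 per group, adjusted p = 6.5e-05) and by 6.70 ± 0.51 in wild type (adjusted p = 0.00021). These are 238-fold and 104-fold changes, and they ranked 27th and 28th of all tested probe sets. On 3 of the 4 control arrays Hop3 lay at 81.9 or lower, close to the added constant of 29.1, so the size of its fold depends on that constant. With 7.28 in its place the log2 values were 8.34 in the knockout and 6.94 in wild type, and with 116 they were 6.87 and 6.03. Leaving out wild-type control replicate 1 gave 7.48 in wild type, leaving out control replicate 2 gave 5.91, and Hop3 passed both times.

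Hop2 was bright after heat and moderately bright before it. Its signal was 8153 and 9283 in heated knockout shoots, against 462 and 439 in control knockout shoots. Wild-type shoots had 9110 and 5706 after heat, against 787 and 389 in controls. Heated and control arrays did not overlap, and the lowest heated array was 7.25 times the highest control array. The log2 fold change was 4.19 ± 0.41 in the knockout (limma adjusted p = 0.00058) and 3.63 ± 0.41 in wild type (adjusted p = 0.0017), which are 18.2-fold and 12.4-fold changes. Without wild-type control replicate 1 the wild-type value was 4.11 (adjusted p = 0.0029).

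Hop1 signal stayed in 1 narrow band. It was 393 and 412 in heated knockout shoots, against 274 and 422 in control knockout shoots. Wild-type shoots had 468 and 302 after heat, against 447 and 344 in controls, so that heated and control arrays overlapped in both genotypes. The log2 fold change was 0.22 ± 0.36 in the knockout (95% interval -0.60 to 1.04, limma adjusted p = 0.75) and -0.06 ± 0.36 in wild type (-0.87 to 0.76, adjusted p = 0.96). Both intervals lay wholly below those of Hop2, which were 3.26 to 5.11 and 2.70 to 4.56. Relative to the median of all tested probe sets, Hop1 lay at 0.48 and 0.17. The sign in wild type turned with the scaling, to 0.25 under quantile normalization and 0.20 under median centring, and it was 0.12 without wild-type control replicate 1, so no direction is given for Hop1.

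**Figure D1:**
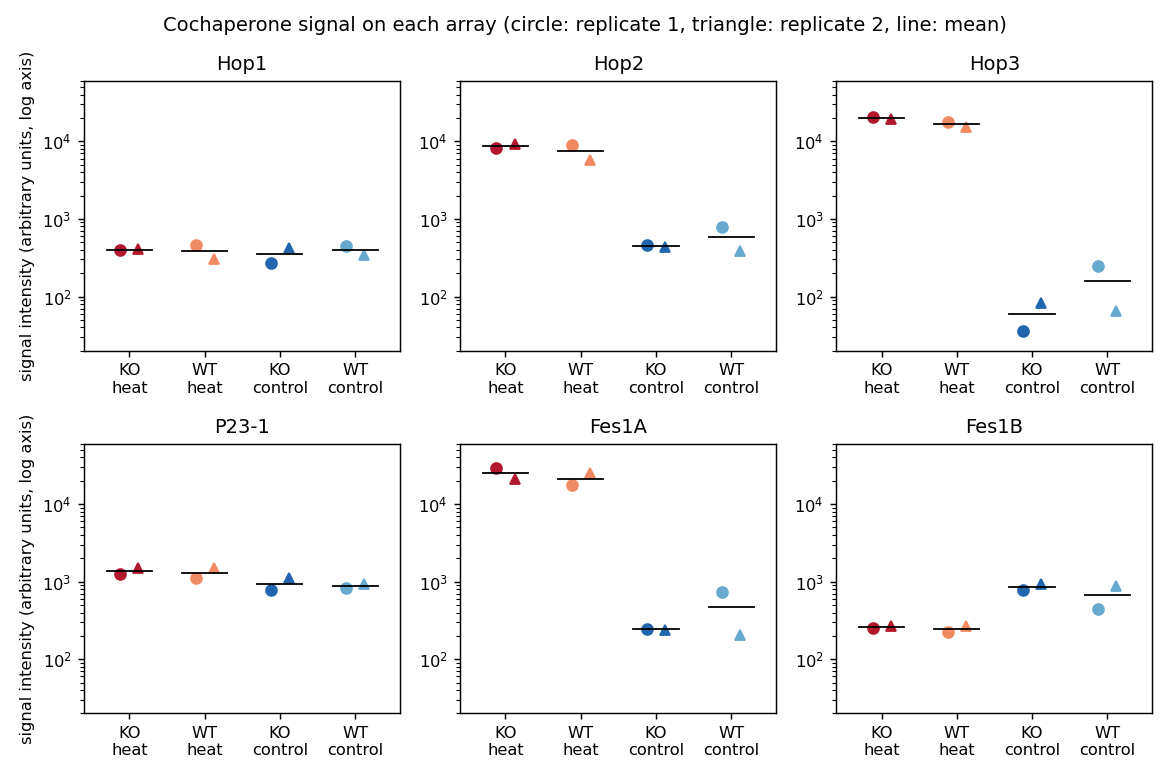
Signal intensity of the 6 cochaperone genes on each of the 8 arrays, on a log axis in arbitrary units, for heated knockout (KO), heated wild type (WT), control knockout and control wild type. Circles are replicate 1, triangles replicate 2 and lines the mean of 2 arrays; Hop2, Hop3 and Fes1A are far higher on all heated arrays, Fes1B is lower on all of them, and wild-type control replicate 1 stands apart for Hop3 and Fes1A.

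P23-1 lay slightly higher on heated arrays, without passing the test. Its signal was 1257 and 1496 in heated knockout shoots, against 773 and 1117 in control knockout shoots. Heated wild-type shoots had 1127 and 1486, against 821 and 925 in wild-type controls. The 4 heated arrays all lay above the 4 control arrays, but by a gap of 1.01-fold at the closest, and 7.29% of all tested probe sets had that order too. The log2 fold change was 0.55 ± 0.34 in the knockout (95% interval -0.23 to 1.33, limma adjusted p = 0.38) and 0.56 ± 0.34 in wild type (-0.22 to 1.33, adjusted p = 0.45). Relative to the median of all tested probe sets these are 0.80 and 0.78, and the wild-type value was 0.47 (adjusted p = 0.75) without wild-type control replicate 1. Averaged over both genotypes, a contrast chosen after the data had been seen, it was 0.55 ± 0.24 (adjusted p = 0.15). Its relative P23-2 (AT3G03773) was not analysed here, so the P23 family allowed no comparison of paralogs.

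In the Fes1 family, Fes1A rose in both genotypes, and Fes1B fell in the knockout and lay lower on every heated array. Fes1A signal was 29490 and 20883 in heated knockout shoots, against 244 and 241 in control knockout shoots. In wild type it was 17604 and 24843 after heat, against 742 and 205 in controls. Its lowest heated array was 23.7 times its highest control array. The log2 fold change was 6.52 ± 0.53 in the knockout (limma adjusted p = 0.00021) and 5.62 ± 0.53 in wild type (adjusted p = 0.00072), which are 91.5-fold and 49.3-fold changes. The value in wild type became 6.49 when its control replicate 1 was left out and 4.76 when control replicate 2 was, and Fes1A passed in both cases.

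Fes1B signal was 253 and 266 in heated knockout shoots, against 784 and 932 in control knockout shoots. Heated wild-type shoots had 226 and 272, against 447 and 889 in wild-type controls. Every heated array lay below every control array, an order that 18.7% of all tested probe sets shared. In the knockout the log2 fold change was -1.62 ± 0.38 (95% interval -2.47 to -0.76, limma adjusted p = 0.040), so that heat lowered the level 3.07-fold. In wild type it was -1.26 ± 0.38 (-2.12 to -0.40) and did not pass (adjusted p = 0.14). Relative to the median of all tested probe sets these are -1.36 and -1.03. Averaged over the genotypes, the added contrast gave -1.44 ± 0.27 (adjusted p = 0.0089), with 5.25% of all tested probe sets called higher and 12% called lower. With the replicate number added to the model within each genotype, Fes1B passed in the knockout (limma adjusted p = 0.0037) and in wild type (adjusted p = 0.017). That model called many more of the 15919 tested probe sets, 3965 in the knockout and 2390 in wild type, against 1080 and 406 in the main fit. Of its calls, 29.6% and 32.6% were higher, and the rest lower. With the number added across both genotypes, it missed the threshold in the knockout (adjusted p = 0.051). The knockout call was close to the threshold. It was lost with no filter on dim probe sets (adjusted p = 0.060), under quantile normalization (-1.39, adjusted p = 0.090) and under median centring (-1.31, adjusted p = 0.084). It was also lost without knockout control replicate 1 or knockout heat replicate 2 (adjusted p = 0.16 each), knockout heat replicate 1 (0.21) or knockout control replicate 2 (0.22), at values from -1.74 to -1.50. Without wild-type control replicate 1 the wild-type value was -1.73 (adjusted p = 0.093).

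The remaining relative of this family on the array, Fes1C (AT5G02150), was not a member and did not pass. Its signal was 604 and 556 in heated knockout shoots, against 585 and 886 in control knockout shoots. The wild-type signal was 1338 and 499 after heat, against 1721 and 701 in controls. The log2 fold change was -0.30 ± 0.55 in the knockout (adjusted p = 0.79) and -0.41 ± 0.55 in wild type (adjusted p = 0.76). Its fold changes lay between those of Fes1A and Fes1B, its heated and control arrays overlapped in both genotypes, and its wild-type value was 0.22 without wild-type control replicate 1.

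By count, 3 of 6 members were called higher and 1 lower by heat in the knockout, where 6.78% of all tested probe sets were called, 3.13% higher and 3.66% lower. In wild type 3 were called higher and 0 lower, where 2.55% of all tested probe sets were called, 1.84% higher and 0.71% lower. The 3 called higher in each genotype were Hop2, Hop3 and Fes1A, whereas 1.81% of all tested probe sets were called higher in both. The median log2 fold change of the 6 members was 2.37 in the knockout and 2.09 in wild type, beside -0.26 and -0.22 over all tested probe sets. These medians fall between 3 strongly raised genes and 3 others, and describe none of the 6 well.

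**Figure D2:**
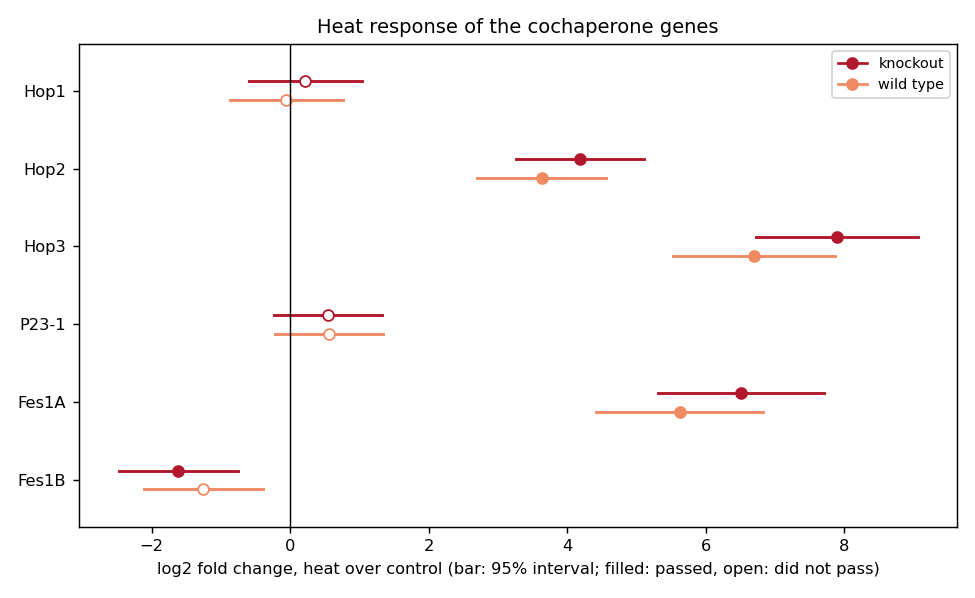
Log2 fold change of heat over control for each cochaperone gene in knockout and wild type, with bars for 95% intervals from limma (2 arrays per group). Filled points passed the test and open points did not; Hop3, Fes1A and Hop2 lie between 3.63 and 7.89, Hop1 and P23-1 near 0, and Fes1B below 0.

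Paralogs were then compared directly, through the difference of their log2 values on the same array. The size of such a difference on 1 array has no meaning of its own, because it holds the brightness of 2 probe sets, but its change with heat does. The change was tested over 4 heated against 4 control arrays by an exact two-sided permutation test, whose smallest possible p is 0.0286. In all, 4 pairs were compared, and p-values were adjusted over these 4. A p at the smallest possible value says only that heated and control arrays did not overlap. The HOP pairs share genes, so their results are not independent of each other.

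The difference of Hop3 minus Hop1 was 5.46 ± 0.20 on heated arrays and -1.75 ± 0.66 on control arrays (SD, n = 4 each). Heat thus shifted it by 7.21, that is, Hop3 rose 148-fold relative to Hop1 (exact permutation p = 0.0286, adjusted 0.0286). For Hop2 minus Hop1 the values were 4.25 ± 0.12 on heated and 0.42 ± 0.37 on control arrays, a shift of 3.83 or 14.2-fold (exact permutation p = 0.0286, adjusted 0.0286). Both heat-raised HOP genes also differed from each other. Hop3 minus Hop2 was 1.21 ± 0.23 on heated and -2.18 ± 0.56 on control arrays, a shift of 3.38 or 10.4-fold (exact permutation p = 0.0286, adjusted 0.0286). On heated arrays this difference ranged from 0.96 to 1.44, and on control arrays from -2.91 to -1.56. The folds that involve Hop3 depend on the added constant. With 116 in place of 29.1 the shift was 6.38 for Hop3 minus Hop1 and 2.75 for Hop3 minus Hop2, and with 7.28 it was 7.56 and 3.68, at the same p.

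Fes1A minus Fes1B was 6.34 ± 0.27 on heated and -1.17 ± 1.26 on control arrays (SD, n = 4 each), a shift of 7.51 or 182-fold (exact permutation p = 0.0286, adjusted 0.0286). Its control arrays had the widest spread of the 4 pairs, from -1.97 to 0.69, and the highest was wild-type control replicate 1. By genotype the shift was 8.13 in the knockout and 6.88 in wild type, and 8.13 over both without that array. For the HOP pairs the shifts were 7.67 in the knockout and 6.75 in wild type for Hop3 minus Hop1, 3.96 and 3.69 for Hop2 minus Hop1, and 3.71 and 3.06 for Hop3 minus Hop2. Without that array the HOP shifts were 7.54, 3.94 and 3.59 in the same order. In every pair heated and control arrays did not overlap. With permutation confined to each genotype, the smallest possible p is 0.0556, and each pair had that p, so no call could be made there.

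**Figure D3:**
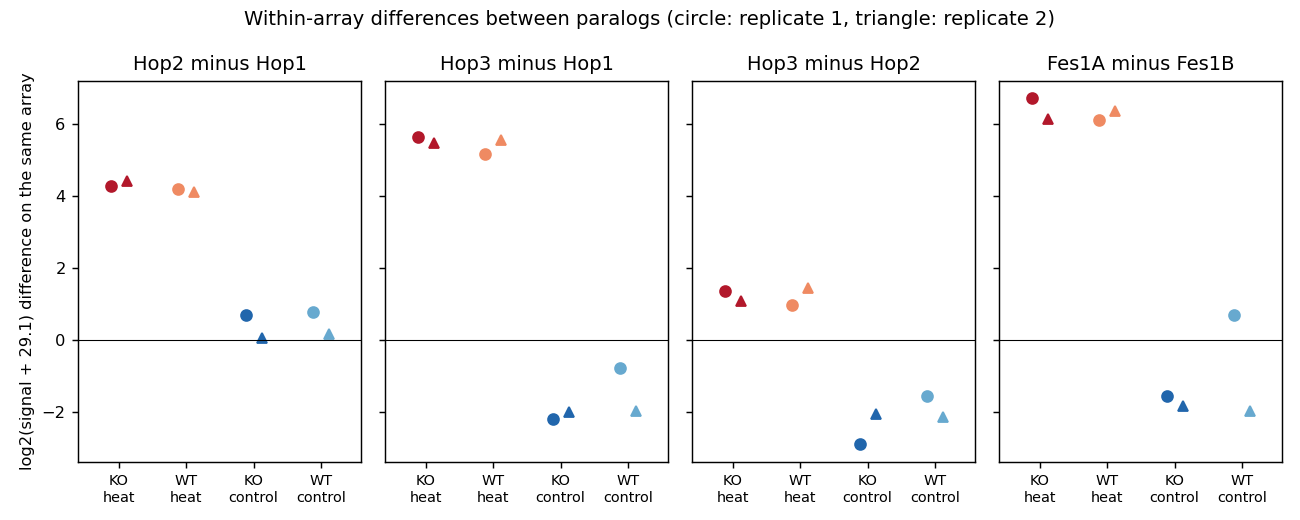
Difference of log2(signal + 29.1) between paralogs on the same array, for the 4 pairs and the 4 groups (KO knockout, WT wild type); circles are replicate 1 and triangles replicate 2. In each pair all 4 heated arrays lie above all 4 control arrays; only this change with heat can be read, not the distance of a group from 0.

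The spread of the 3 raised genes among control arrays rested largely on 1 array. Hop3 spanned 1.34-fold from its lowest to its highest heated array, Hop2 1.63-fold and Fes1A 1.68-fold. Among control arrays the spans were 6.87-fold for Hop3, 2.02-fold for Hop2 and 3.63-fold for Fes1A. Without wild-type control replicate 1 the control spans were 2.27-fold, 1.19-fold and 1.19-fold, so that those of Hop2 and Fes1A were then narrower than among heated arrays. Fes1B had a span of 1.20-fold over heated arrays and 2.08-fold over control arrays, or 1.19-fold without that array. Hop1 and P23-1 spanned 1.63-fold and 1.45-fold over control arrays, and 1.55-fold and 1.33-fold over heated ones.

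Whether the knockout changed any of these genes was asked at both temperatures. None of the 6 passed between genotypes, nor did any of the 15919 probe sets in limma (0% called in each contrast). The disrupted gene HSA32 was among those that did not pass. Its log2 difference was -4.87 after heat (limma adjusted p = 0.23) and -6.39 in the interaction (adjusted p = 0.42). With 2 arrays per group, the lack of a call thus does not show that a gene was unchanged. At an unadjusted p under 0.05 there were 280 probe sets after heat, 82 at 22 °C and 88 for the interaction.

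After heat, the knockout lay above wild type by 0.28 ± 0.51 for Hop3 (95% interval -0.89 to 1.45), 0.27 ± 0.41 for Hop2 (-0.66 to 1.20) and 0.25 ± 0.53 for Fes1A (-0.95 to 1.45). Hop1 (0.09), P23-1 (0.08) and Fes1B (0.06) had smaller log2 differences, all with adjusted p = 1. Hop3 was the member whose 2 heated knockout arrays both lay above both heated wild-type arrays, and those of the other 5 overlapped. Of all tested probe sets, 9.94% had that order.

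At 22 °C the knockout minus wild-type values were -0.92 ± 0.51 for Hop3 (95% interval -2.09 to 0.25), -0.64 ± 0.53 for Fes1A (-1.85 to 0.56) and -0.28 ± 0.41 for Hop2 (-1.21 to 0.64). Fes1B lay at 0.42 ± 0.38, Hop1 at -0.19 and P23-1 at 0.09, all with limma adjusted p = 1. Most of these values depended on which wild-type control array was kept. Without replicate 1 Hop3 lay at -0.13, Hop1 at -0.011 and P23-1 at 0.0071, and Fes1A (0.22), Hop2 (0.20) and Fes1B (-0.05) had the opposite sign. Without wild-type control replicate 2 the values were larger, at -1.70 for Hop3, -1.51 for Fes1A and -0.77 for Hop2. Fes1B then lay at 0.89, Hop1 at -0.36 and P23-1 at 0.17. Control knockout and control wild-type arrays overlapped for all 6 genes.

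The interaction, the heat response in the knockout minus that in wild type, was 1.20 ± 0.73 for Hop3 (95% interval -0.45 to 2.85), 0.89 ± 0.75 for Fes1A (-0.81 to 2.59) and 0.55 ± 0.58 for Hop2 (-0.76 to 1.87). For Hop1 it was 0.28, for P23-1 -0.0087 and for Fes1B -0.36, and each had limma adjusted p = 1. Without wild-type control replicate 1 these values shrank to 0.41 for Hop3, 0.03 for Fes1A and 0.07 for Hop2. They were 0.10 for Hop1, 0.07 for P23-1 and 0.11 for Fes1B, the last 2 with the opposite sign. Leaving out wild-type control replicate 2 instead gave larger interactions, of 1.98 for Hop3, 1.75 for Fes1A and 1.04 for Hop2. The heat responses of the knockout and wild type thus differed by less than the spread between replicates allows to be called, for each member.

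**Figure D4:**
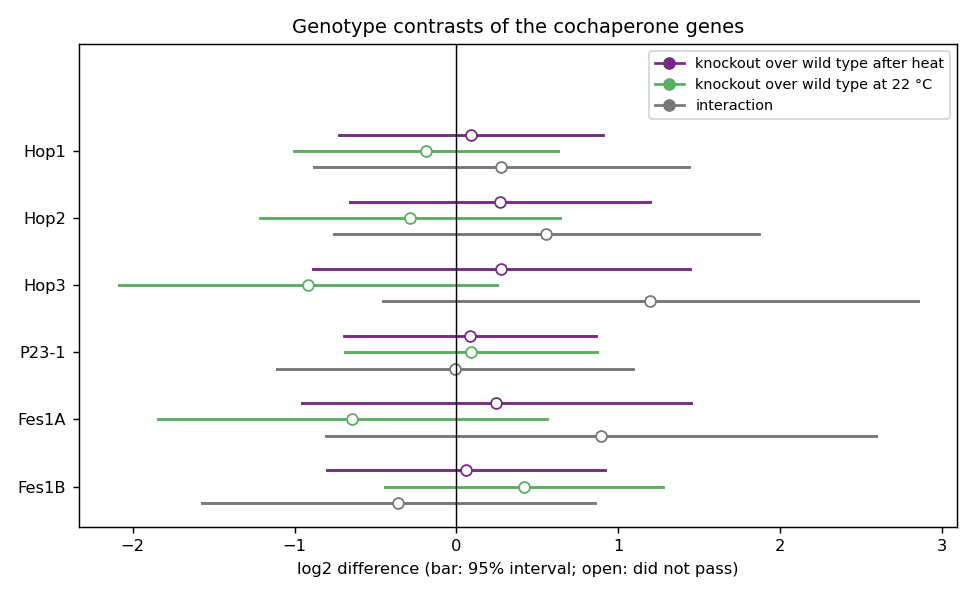
Log2 differences between knockout and wild type after heat and at 22 °C, and the interaction, for each cochaperone gene, with 95% intervals from limma (2 arrays per group). All points are open because none passed, and every interval includes 0.

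Genes of the HSP70 and HSP90 families, and other cochaperone genes, were set beside the members. Of 18 HSP70 loci listed, 4 had a probe set paired with 1 gene, whereas 0 of 7 HSP90 loci matched one, so HSP90 itself was not analysed here. In the HSP70 list, 4 of 4 rose in the knockout and 2 of 4 in wild type, with median log2 fold changes of 3.53 and 2.83. Of all tested probe sets, 3.13% were called higher in the knockout and 1.84% in wild type. HSP70-3 (AT3G09440), a cytosolic HSP70, rose by 6.37 ± 0.50 in the knockout and 5.22 ± 0.50 in wild type. HSP70-2 (AT5G02490) rose by 4.34 ± 0.60 and 3.59 ± 0.60. HSP70-16 rose by 2.71 (limma adjusted p = 0.035) and HSP70-17 by 2.48 (adjusted p = 0.034) in the knockout. Their heated knockout arrays differed widely, at 1309 and 3376 for HSP70-16 and 474 and 1494 for HSP70-17. Their wild-type values of 2.07 and 1.66 did not pass. Without wild-type control replicate 1, HSP70-2 was lost in wild type (3.62, limma adjusted p = 0.072), which left 1 of 4, and the wild-type median was 2.95.

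Of 23 other cochaperone loci listed, 7 were tested, and 6 of them rose in each genotype (medians 4.77 in the knockout and 3.95 in wild type). Fes1C was the exception. Of all tested probe sets, 1.81% were called higher in both genotypes. The J-domain protein gene DNAJ (AT2G20560), of a class that stimulates the ATPase of HSP70, rose by 8.96 ± 0.61 in the knockout and 6.88 ± 0.61 in wild type. Its signal was 9.5 and 11.4 in control knockout shoots and 31.9 on 1 wild-type control array, at or near the added constant of 29.1, so that its fold is set largely by that constant (log2 fold changes of 7.28 in the knockout and 6.03 in wild type with 116 in its place). ROF2 (AT5G48570), an HSP90-binding peptidyl-prolyl isomerase, rose by 8.54 ± 0.43 and 7.97 ± 0.43. Its control signals were low too, at 43.2 to 128.9, so its fold also depends on the added constant. With 116 in place of 29.1, ROF2 rose by 7.55 in the knockout and 7.10 in wild type. BOB1 rose by 5.10 and 4.36, the AHA1-like gene AT3G12050, related to activators of the HSP90 ATPase, by 4.77 and 3.76, SGT1A, an HSP90 partner in immune receptor stability, by 4.55 and 3.95, and the cyclophilin SQN by 3.03 and 2.58. All of these passed in limma, with adjusted p from 1.7e-05 to 0.0083. Without wild-type control replicate 1, 6 of 7 still passed in wild type, with a median of 4.63. The rises of Hop3 and Fes1A were above those of BOB1, AT3G12050, SGT1A and SQN in both genotypes, whereas Hop1, P23-1 and Fes1B lay below all 6 raised genes. These orderings are of fold changes only and were not tested.

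**Figure D5:**
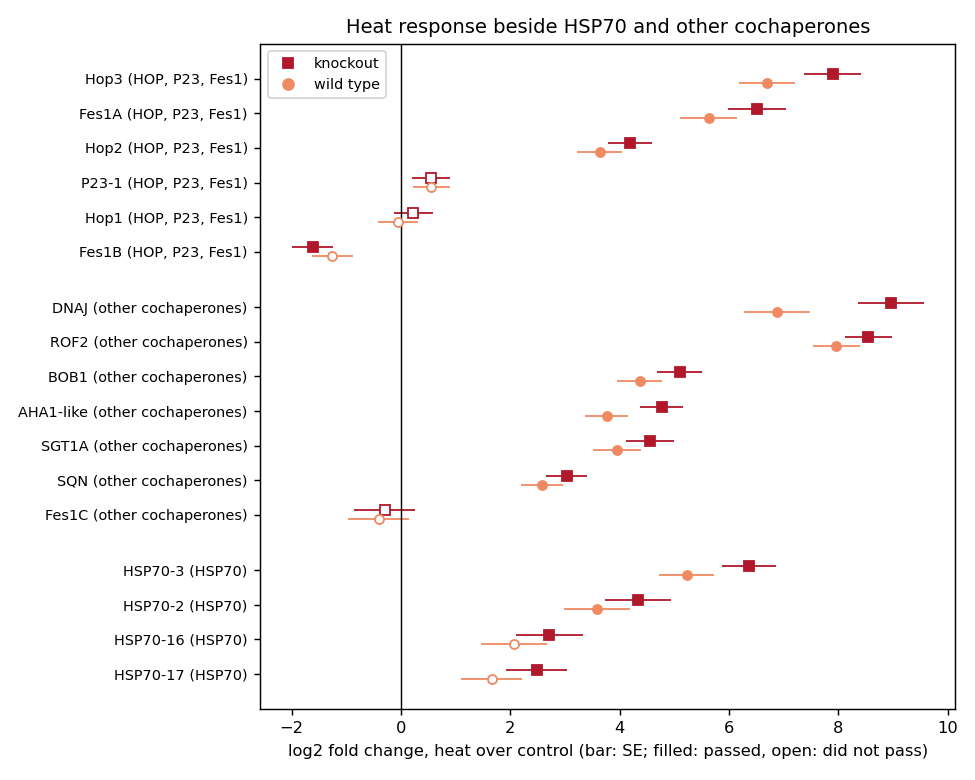
Log2 fold change of heat over control in knockout (squares) and wild type (circles) for the 6 members, 7 other cochaperone genes and 4 HSP70 genes, with bars for standard errors. Filled symbols passed the test; 6 of 7 other cochaperones rose in each genotype, and Hop1, P23-1 and Fes1B lie apart from the raised genes.

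Profiles over the 8 arrays were compared for the 3 members raised in both genotypes, by the root mean square difference of log2 values after each gene was centred on its own mean. Among 8784 other tested probe sets with 1 gene, SGT1A was nearest to Hop2 (0.27, Pearson r 0.995), followed by AT5G51740 (0.29) and AT5G11680 (0.30). Nearest to Hop3 were AT1G30070 (0.36, r 0.996), AT5G37670 (0.46) and AT5G07330 (0.47). Nearest to Fes1A were AT3G07090 (0.19, r 0.998), HSP70-3 (0.42) and AT3G14200 (0.45). Hop3 and Fes1A differed from each other by 0.68 (r 0.996), less than Hop3 from its paralog Hop2 (1.73, r 0.994). Hop2 and Fes1A differed by 1.16. These are descriptions over 8 arrays that share the same contrast of heat and control, so r carries no test. Fes1B ran opposite to Fes1A on these arrays (r -0.966).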

How the data were processed

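The authors deposited 1 signal intensity per probe set and array of biotin-labelled total RNA, per the labels, on a linear scale. How the intensity values were summarised from probes is not given in any source used here. Each array had a 2% trimmed mean between 500.04 and 500.07, and this scaling was kept. Array medians ran from 131 to 181. No detection calls were used, and precision is limited by there being 2 arrays per group.

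The array's 64 control probe sets, and then the 30% with the lowest mean signal (61.7 or lower), were left out of 22810. The scale was log2(signal + 29.1), with the 20th percentile of the deposited intensities as the added constant. The model had a mean for each group and a variance trend (limma 3.58.1, R 4.3.3), 4 residual and 4.79 prior degrees of freedom, and 5 two-sided contrasts. Paralog differences were tested in Python 3.11.15 by exact permutation. Both tests were tested on simulated data first.

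Genes came from the platform annotation, which paired 13513 probe sets with 1 gene, updated through a RefSeq table of TAIR10.1 (77 gene numbers not found). No coordinates or sequences are printed, since the annotation names no build. Groups came from sample titles. P-values measure the spread between separate plant pools, as the series design describes the replicates.

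All 6 members were named. From the HSP70, HSP90 and other cochaperone lists, genes passing a heat contrast were named, up to 12 per list, and also Fes1C as a relative of the members. The 3 nearest profiles were named for each member raised in both genotypes. The members, lists, tests and alternatives were chosen with earlier results of these data known. Alternatives were the added constant, the filter, quantile normalization, median centring, the variance model, replicate blocks and leaving out arrays. Wild-type control replicate 1 and the added constant were also varied for the listed HSP70 and cochaperone genes, chosen after seeing the data. A check of pairing gave correlations between replicate differences of 0.54 for wild-type and 0.52 for knockout control and heat arrays of the same number, but -0.39 to -0.24 across genotypes. The main fits did not take the numbers to pair the samples, since no label says that they do. Whether the numbers pair control and heat arrays within a genotype was not tested, and fits with replicate blocks are given below.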

Additional observations from a re-analysis of the deposited data

How the results depend on the processing

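Hop2, Hop3 and Fes1A passed for heat in both genotypes under each of 19 alternatives. Their log2 fold changes ranged from 3.15 to 4.49 for Hop2, 5.91 to 8.34 for Hop3 and 4.76 to 6.82 for Fes1A over both genotypes. Fes1B kept its sign for heat under all 19, and in the knockout lost its call under 8 and kept it under 11. No member passed between genotypes or in the interaction under any alternative. Each member had 1 probe set, so the alternative of another probe set was not run.

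The replicate number as a replicate block gave 675 probe sets for heat in the knockout, against 1080 without it, and Fes1B missed the threshold there (adjusted p = 0.051). A replicate block within genotype gave 2390 calls for heat in wild type, 3965 in the knockout and 1 in the interaction, and called Fes1B in wild type as well (adjusted p = 0.017). A block that crosses the numbers between genotypes, chosen after seeing the data, gave 1406, 2860, 1 after heat between genotypes and 1 in the interaction. Leaving out both arrays of wild-type replicate 1 gave 878 calls for heat in wild type, against 406, and 2424 in the knockout, and 1 each after heat between genotypes and in the interaction. Leaving out 1 array gave 160 to 1314 calls for heat in wild type, 230 to 2000 in the knockout and 0 to 4 between genotypes after heat. The share of calls that were higher was 72.2% in wild type and 46.1% in the knockout as deposited, 76.5% and 62.0% under quantile normalization, and 87.2% and 73.2% under median centring. The causes were not tested.

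Signs turned only for values that had not passed. The log2 fold change of Hop1, heat over control, was 0.25 in wild type under quantile normalization and 0.20 under median centring. With 1 array left out it was -0.35 to 0.24 in wild type and -0.066 to 0.51 in the knockout. The interaction of P23-1 was 0.037 under median centring and -0.27 to 0.25 with 1 array left out, that of Hop1 -0.016 to 0.57 and that of Fes1B -0.83 to 0.11. Omitting both replicate 1 arrays of wild type gave an interaction of -0.22 for Fes1A. That setting also gave genotype differences at 22 °C of 0.20 for Hop2, 0.22 for Fes1A and -0.055 for Fes1B, and after heat of -0.11 for P23-1, -0.0015 for Fes1A and -0.061 for Fes1B. With 1 array left out, genotype differences at 22 °C ranged from -1.51 to 0.22 for Fes1A, -0.055 to 0.89 for Fes1B, -0.48 to 0.10 for Hop1, -0.77 to 0.20 for Hop2 and -0.17 to 0.35 for P23-1. After heat they ranged from -0.0021 to 0.50 for Fes1A, -0.061 to 0.18 for Fes1B, -0.20 to 0.38 for Hop1, -0.066 to 0.61 for Hop2 and -0.11 to 0.28 for P23-1.

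The paralog shifts ranged with the added constant from 6.38 to 7.56 for Hop3 minus Hop1, 2.75 to 3.68 for Hop3 minus Hop2, 3.63 to 3.88 for Hop2 minus Hop1 and 6.93 to 7.68 for Fes1A minus Fes1B. Quantile normalization gave 6.71, 3.23, 3.48 and 7.04. With permutation within genotype, or labels exchanged within genotype and replicate number as a replicate block, they stayed at 3.83 for Hop2 minus Hop1, 7.21 for Hop3 minus Hop1, 3.38 for Hop3 minus Hop2 and 7.51 for Fes1A minus Fes1B. Exact permutation then could not go below p = 0.0556 and 0.125, so the calls were lost by construction. Leaving out 1 array (smallest exact p = 0.0571) gave 3.70 to 3.94, 7.06 to 7.54, 3.14 to 3.59 and 7.24 to 8.13, in that order. Omitting both replicate 1 arrays of wild type (smallest exact p = 0.10) gave 3.96, 7.63, 3.67 and 8.20.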
